A study of Aspergillus niger with 6 samples.

Results

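The 79 genes described here carry a KEGG annotation for DNA replication, base excision repair, nucleotide excision repair, mismatch repair, homologous recombination or non-homologous end-joining. They were found among 11910 rows of a table of expression values for the filamentous fungus Aspergillus niger. Of 90 rows with such a term, 11 were left out because they encode a cullin or carry the annotation for basal transcription factors. The rule uses annotation terms and no expression values, but it was set with earlier results of these data known. Gene symbols below are those of KEGG, and roles are background knowledge drawn mainly from budding yeast and human homologs.

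The control strain was MA234.1, and the compared strain, ΔrpnR, lacks rpnR, which the series describes as a predicted transcription factor gene under the control of FlbA. The labels name 3 libraries per strain, while the design text speaks of duplicates. Both strains were grown from conidia in shaken liquid culture at 30 °C, first for 16 h in Transformation Medium with 1% glucose and then for 4 h in Minimal Medium with 25 mM xylose. The labels do not say how many independent deletion strains were used, nor what other alleles either strain carries. No row names rpnR, so its loss was not checked here.

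The deposited table gives 1 value per gene and strain, read here as the authors' FPKM, a fragment count normalised for the length of the transcript and the size of the library. The values below therefore stand without SD or n, and the sequencing depth is unknown. A gene is called changed where the q-value of the authors' deposited table, the p-value of the strain comparison adjusted over genes, is under 0.05. A q of 1 is taken as not tested. A log2 ratio compares the deletion strain with the control after adding 1 to each FPKM, so it is too small for genes with low values. Rescaling both strains to the same summed FPKM shifted the median log2 ratio of all tested genes from 0.016 to -0.053. The sign of positive ratios smaller than this shift therefore depends on the scaling.

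Cells copy their genome with a conserved machine. The MCM ring unwinds DNA, primase and the alpha polymerase start new strands, the delta and epsilon polymerases extend them, and a sliding clamp keeps the polymerases in place. Base excision repair removes small base lesions, nucleotide excision repair cuts out bulky ones, mismatch repair corrects copying errors, and broken ends are rejoined by recombination with a homologous copy or by direct end joining. Fungal hyphae grow at the tip while nuclei continue to divide behind it, so replication genes are in use in growing mycelium.

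Replication and repair genes had similar values in the strains. None of the 77 tested members was called in either direction, where 6.54% of all 9234 tested genes were called (authors' deposited q-value under 0.05). The values lay above the control for 38 members and below it for 39, and the median log2 ratio was 0.00, against 0.02 over all tested genes. With an upper bound on the unadjusted p-value computed from the authors' deposited q-value, 1 member, POLL, came under 0.05, where 18.1% of all tested genes did. The lowest q among the members was that of POLL, at 0.190, and the median q was 0.929. A q above the threshold does not show that a gene was equal in the strains. In mycelium sampled in bulk, fewer cells that express a gene and less RNA per cell cannot be told apart.

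**Figure D1:**
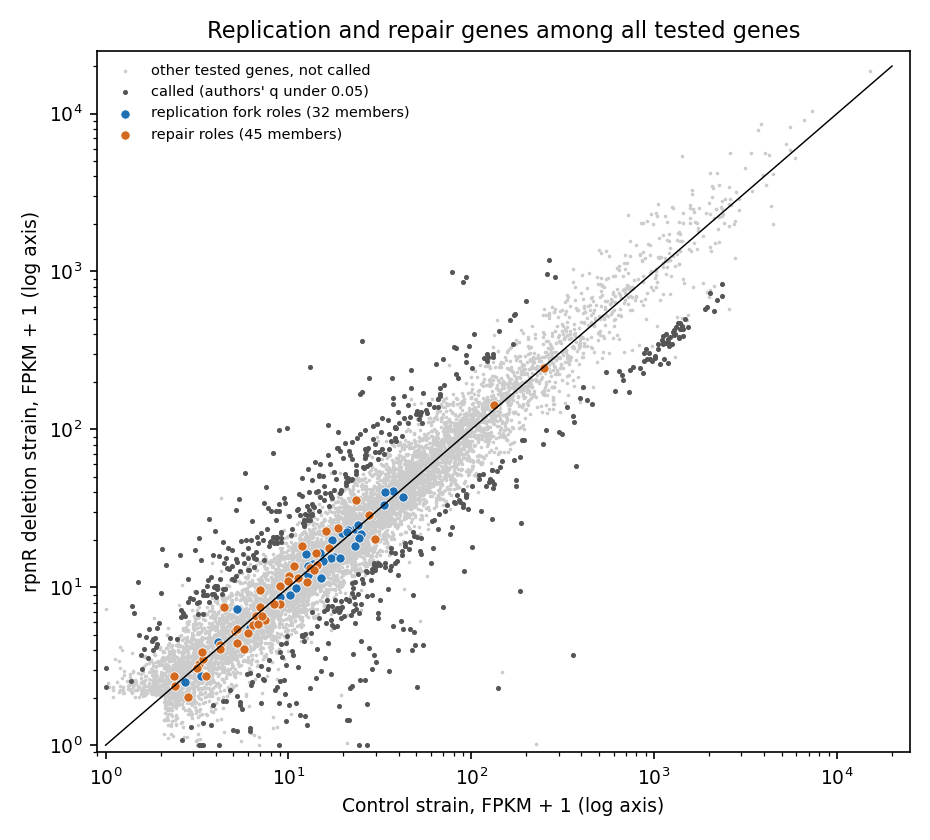
FPKM + 1 of each tested gene in the control (x axis) and in the rpnR deletion strain (y axis), both on log axes. Grey points are genes that were not called, dark points called genes, and coloured points the 32 tested members with a role at the replication fork and the 45 with a role in repair. The line marks equal values, and all coloured points lie close to it.

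The differences were also small in size. Of the 77 tested members, 73 (94.8%) had an absolute log2 ratio below 0.5, compared with 66.8% of all tested genes. None reached an absolute log2 ratio of 1, which 10.9% of all tested genes did. The median absolute log2 ratio was 0.15 among the members and 0.33 among all tested genes. Expression level was set aside by taking only the 5527 tested genes with a mean between 1.95 and 36.3 FPKM, the range from the 5th to the 95th percentile of the members. Of these, 6.22% were called, 67.8% had an absolute log2 ratio below 0.5, and the median absolute log2 ratio was 0.32. Related genes outside the members, described below, had a similarly narrow spread, so it was not particular to the members. An absolute log2 ratio below 0.5 was found for 89.7% of the tested genes of the context lists. The share was 90.9% for the rows left out by the rule and 90.5% for genes found by protein domains. Their median absolute log2 ratios were 0.20, 0.15 and 0.15 in that order. These figures describe the deposited values, and the narrower spread of the members was not tested.

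**Figure D2:**
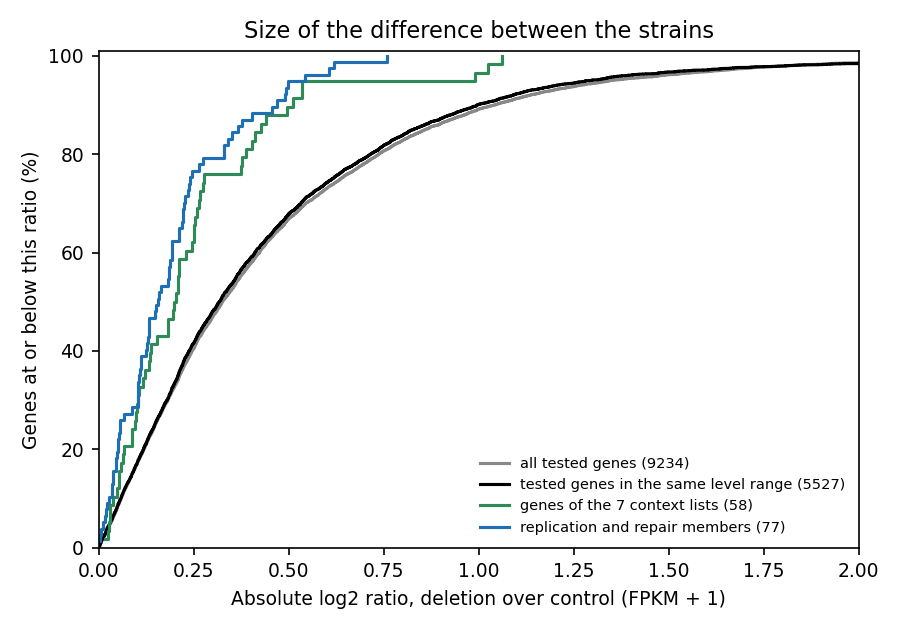
Cumulative share of genes (y axis, percent) by absolute log2 ratio of deletion strain over control on the FPKM + 1 scale (x axis). The members' curve reaches 94.8% at a ratio of 0.5, where the curve of all tested genes stands at 66.8%. At the same ratio the curve of genes in the same level range stands at 67.8% and that of the 7 context lists at 89.7%.

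By pathway, the strains differed little. In DNA replication, 14 of 32 tested genes had values above the control, with a median log2 ratio of -0.05 and a range from -0.40 to 0.47. In base excision repair 12 of 23 lay above, with a median of 0.04 and a highest value of 0.76, that of POLL, which also belongs to non-homologous end-joining. In nucleotide excision repair 12 of 28 lay above, with a median of -0.05 and the lowest value of any member, -0.54. Mismatch repair had 12 of 21 above and a median of 0.02. Homologous recombination had 7 of 16 above and a median of -0.03. Non-homologous end-joining, with 4 of 7 above, had the highest median, 0.11. The pathways overlap, since 20 members belong to 2 or more of them. Delta polymerase subunits count in 5, and PCNA, replication protein A and the LIG1 rows in 4. The 6 medians are therefore not independent of each other.

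**Figure D3:**
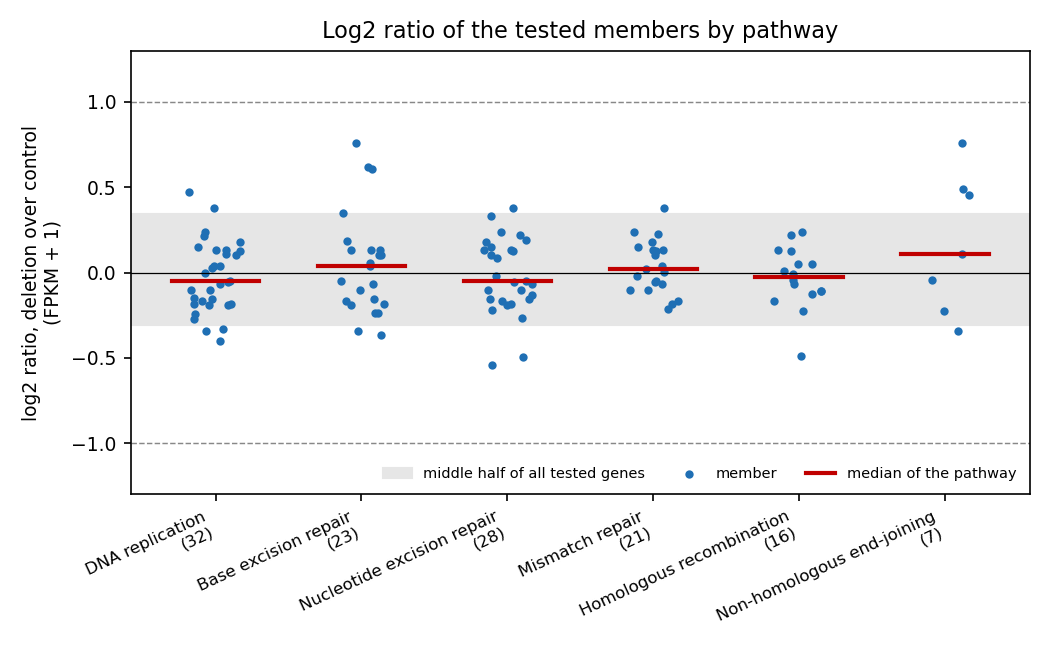
Log2 ratio of deletion strain over control on the FPKM + 1 scale (y axis) for each tested member, by KEGG pathway (x axis, number of tested members in parentheses). Points are genes, red bars pathway medians, the grey band spans the quartiles of all tested genes from -0.31 to 0.34, and no point reaches the dashed lines at -1 and 1; a gene of several pathways is drawn in each.

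The MCM helicase, a ring of 6 related subunits loaded at origins, was present at similar levels throughout. Its subunits lay between 16.1 and 32.3 FPKM in the control and between 14.4 and 32.2 FPKM in the deletion strain. MCM7 was the most abundant in both, at 32.3 and 32.2 FPKM. MCM4 had the lowest log2 ratio, -0.24, at 23.4 FPKM in the control and 19.6 FPKM in the deletion strain. MCM2 stood at 16.8 and 14.6 FPKM, MCM3 at 16.1 and 14.4 FPKM, and MCM6 at 23.9 and 20.8 FPKM. MCM5 was at 23.1 and 23.7 FPKM, the 1 subunit with a value above the control. Its log2 ratio of 0.04 is within the shift that scaling gives, and that of MCM7 was 0.00. The 5 values other than that of MCM5 lay below the control, by small amounts, and their q-values in the authors' deposited table were at least 0.829.

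Primase and the alpha polymerase, which lay down the RNA and DNA primers, had all 4 values slightly above the control, those of POLA2 and PRI2 by log2 ratios of 0.04 and 0.03, within the shift that scaling gives. The small primase subunit PRI1 was at 16.2 FPKM in the control and 18.9 FPKM in the deletion strain. The large subunit PRI2 was at 22.1 and 22.5 FPKM. The catalytic subunit POLA1 stood at 19.9 and 21.6 FPKM and its partner POLA2 at 12.6 and 12.9 FPKM. The delta polymerase, which copies the lagging strand, gave a mixed picture: POLD1, its catalytic subunit, was at 14.4 and 13.7 FPKM, POLD2 at 10 and 8.86 FPKM, and the small subunit POLD4 at 20.1 and 22.1 FPKM. All 3 subunits of the epsilon polymerase, which copies the leading strand, lay below the control. POLE1, its catalytic subunit, was at 5.16 and 4.53 FPKM, POLE2 at 8.0 and 7.71 FPKM, and POLE3, a histone-fold subunit that the file also classes with heteromeric CCAAT factors, at 9.21 and 7.93 FPKM. Among the 10 genes the log2 ratio ran from -0.19 to 0.21. Epsilon subunits had the lowest levels of the 3 polymerases in both strains, between 4.53 and 9.21 FPKM, while alpha subunits and primase lay between 12.6 and 22.5 FPKM.

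The sliding clamp and the single-strand binding protein were the most abundant parts of the fork. PCNA, the clamp, stood at 41.6 FPKM in the control and 36.5 FPKM in the deletion strain. RPA1 and RPA2, which coat unwound DNA, were at 36.4 and 39.8 FPKM and at 32.8 and 38.9 FPKM. Within each strain these 2 subunits were close in level, the higher being 1.11 times the lower in the control and 1.03 times in the deletion strain. Replication factor C, which loads the clamp, had 5 genes between 11.5 and 18.6 FPKM in the control and between 10.9 and 21.2 FPKM in the deletion strain. Its large subunit RFC1 was at 11.8 and 10.9 FPKM. A subunit of the RFC2/4 type (1103961) had the highest log2 ratio of the loader, 0.38, at 11.5 and 15.3 FPKM, while the other row of that type (1158485) was at 13.3 and 12.7 FPKM. The RFC3/5 type subunits were at 13.9 and 15.5 FPKM (1106086) and at 18.6 and 21.2 FPKM (1176066). RPA and both RFC3/5 subunits lay above the control and PCNA and RFC1 below it, and none of these genes had a q under 0.853, that of RPA2, in the authors' deposited table.

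**Figure D4:**
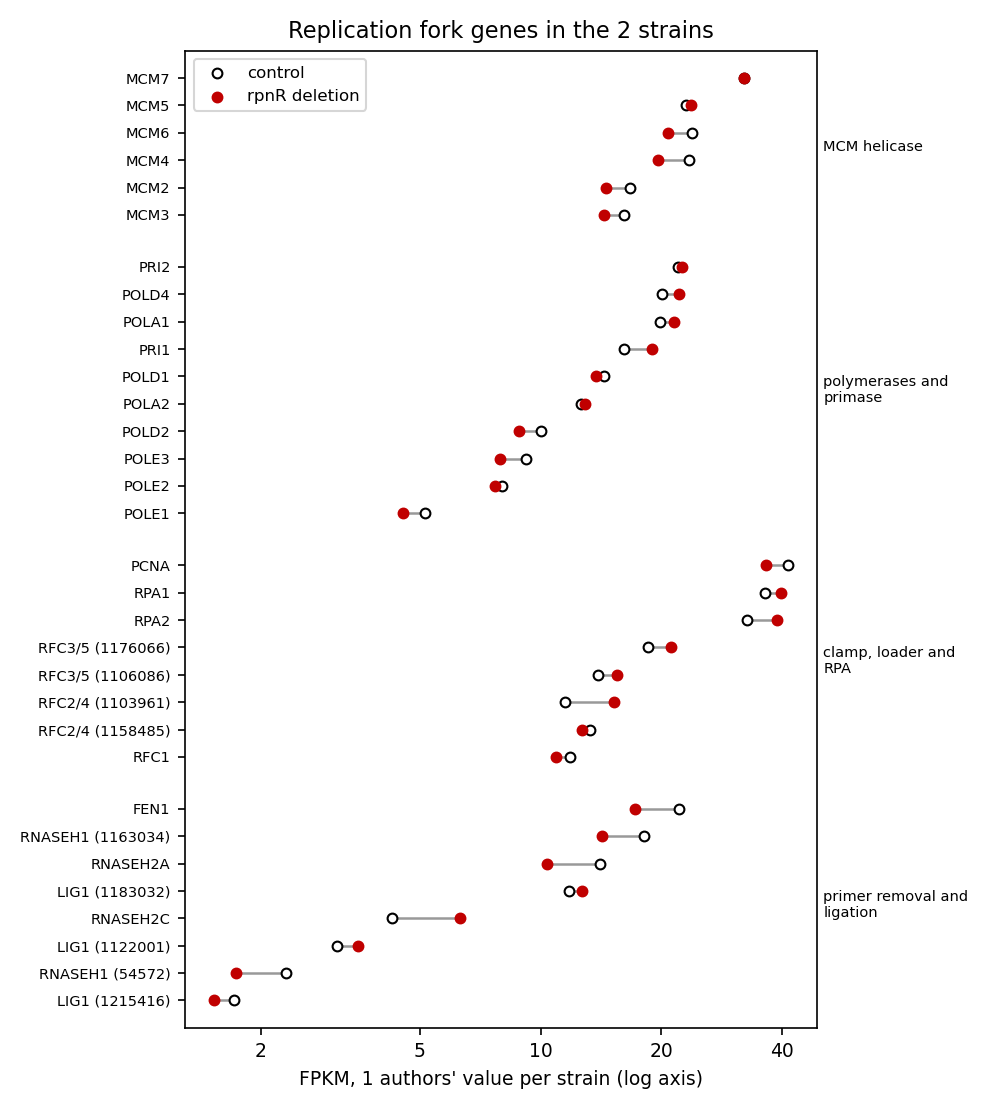
FPKM (x axis, log scale) of the 32 tested members with a role at the replication fork, 1 line per gene, with the control as an open and the rpnR deletion strain as a filled circle. Protein numbers separate rows that share a KEGG symbol; RPA and PCNA lie between 32.8 and 41.6 FPKM in both strains, and the circles of most genes nearly touch.

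Enzymes that remove RNA primers and seal nicks showed the widest ratios at the fork. FEN1, which cuts the flap that carries the primer, was at 22.1 FPKM in the control and 17.3 FPKM in the deletion strain. RNASEH2A, the catalytic subunit of ribonuclease H2, was at 14.1 and 10.4 FPKM, a log2 ratio of -0.40. Its partner RNASEH2C had the opposite sign, at 4.26 and 6.28 FPKM and a ratio of 0.47. KEGG's ribonuclease H1 symbol covers 4 rows of very different levels. One row (1163034) was at 18.2 and 14.2 FPKM and another (54572) at 2.31 and 1.74 FPKM. Of the others, which were not tested, 1181646 stood at 0.299 and 1.02 FPKM and 1131751 was listed at 0 in both strains. The ligase symbol LIG1 covers 3 rows, of which 1183032 was by far the most abundant, at 11.7 and 12.7 FPKM. The others were 1122001, at 3.11 and 3.51 FPKM, and 1215416, at 1.72 and 1.53 FPKM.

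Base excision genes held the largest ratios of the whole set. In this pathway a glycosylase first removes the damaged base. The MUG/TDG type glycosylase (207764), which acts on mismatched thymine and uracil in its human and bacterial homologs, was at 22.5 FPKM in the control and 34.8 FPKM in the deletion strain, with a log2 ratio of 0.61 and a q of 0.338 in the authors' deposited table. The alkylation glycosylase alkA was at 17.8 and 22.9 FPKM. UNG, which removes uracil, stood at 15.6 and 16.8 FPKM, and the row annotated MBD4 at 26.6 and 27.7 FPKM. Of the 4 genes for glycosylases of oxidised bases, 3 lay below the control: OGG1 was at 2.55 and 1.75 FPKM, mutM at 11.7 and 9.78 FPKM, and the NTH rows at 4.22 and 3.44 FPKM (1173155) and at 3.22 and 3.33 FPKM (1165690). Of the 8 glycosylase genes, 5 lay above the control and 3 below it.

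After the glycosylases, 4 genes that act in base excision but not at the fork had values above the control. Fork genes also annotated to this pathway lay on both sides of it. POLD4 and the LIG1 rows 1183032 and 1122001 were above the control. FEN1, PCNA, POLD1, POLD2, the epsilon subunits and the LIG1 row 1215416 were below it. The endonucleases that cut at the empty site were APEX1, at 7.99 FPKM in the control and 9.22 FPKM in the deletion strain, and APEX2, at 8.96 and 9.92 FPKM. The APEX1 row carries the AP_endonuc_2 domain of the endonuclease IV family, to which yeast Apn1 belongs. PARP, a sensor of strand breaks, was at 10.9 and 17.3 FPKM, with a log2 ratio of 0.62 but a q of 0.885 in the authors' deposited table. POLL, the lambda polymerase that fills short gaps, was at 3.43 and 6.49 FPKM. Its log2 ratio of 0.76 was the largest of all members in either direction, and 80.9% of all tested genes had a smaller absolute ratio.

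Nucleotide excision genes included the most abundant members and the lowest ratio. RBX1, a ring-finger subunit of cullin ubiquitin ligases, was at 247 FPKM in the control and 244 FPKM in the deletion strain. RAD23, which carries a ubiquitin-like domain and binds the damage sensor XPC, was at 133 and 141 FPKM. These are the 2 members above 100 FPKM, and proteins of both kinds also act in protein breakdown. XPA, which checks the lesion, was at 28.6 and 19.4 FPKM, a log2 ratio of -0.54. The nuclease that cuts 5′ of the lesion is a pair of ERCC1 and ERCC4, and both values lay below the control: ERCC1 was at 4.74 and 3.07 FPKM and ERCC4 at 6.48 and 5.23 FPKM. ERCC5, which cuts on the 3′ side, lay above it, at 9.78 and 12.5 FPKM.

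Damage sensors of this pathway had small ratios of either sign. DDB1 was at 13.1 FPKM in the control and 15.5 FPKM in the deletion strain. The XPC rows stood at 5.83 and 4.88 FPKM (1184715) and at 2.38 and 2.87 FPKM (1155710). ERCC6 and ERCC8, which couple repair to transcription, were at 5.40 and 4.74 FPKM and at 7.63 and 6.89 FPKM. Of the 11 genes, 4 lay above the control and 7 below it. The general factor TFIIH, which opens DNA around the lesion, was left out by the rule together with cullin 4. Of those 11 rows 9 lay below the control, with a median log2 ratio of -0.15. None was called, which at 11 genes is near the 6.54% called among all tested genes.

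Mismatch repair genes had the smallest median absolute log2 ratio of the roles, 0.04. MSH6 and MSH3, which take part in recognising mispaired bases, had little difference between the strains: MSH6 was at 13.4 FPKM in the control and 12.9 FPKM in the deletion strain, MSH3 at 5.64 and 5.55 FPKM. PMS2 and MLH3, which belong to the family that nicks the new strand, had lower levels, PMS2 with 2.26 FPKM in both strains and MLH3 with 1.36 FPKM in the control and 1.76 FPKM in the deletion strain. The exonuclease EXO1, which removes the stretch with the error, was at 8.02 and 6.79 FPKM. MSH6 and MSH3 thus had higher levels per length than PMS2 and MLH3 in both strains.

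Recombination genes had low levels and small ratios. MRE11 and NBN, which process broken ends, were at 5.03 and 4.17 FPKM and at 12.1 and 12.2 FPKM. RAD52, which anneals strands, was at 9.09 FPKM in the control and 10.8 FPKM in the deletion strain. Of the remodellers that help strand exchange, the RAD54 rows were at 12.9 and 11.9 FPKM (1155408) and at 2.18 and 2.08 FPKM (1123450). RAD54B was at 1.84 and 1.02 FPKM, with the lowest log2 ratio of these genes, -0.49, and a q of 0.350 in the authors' deposited table. The helicase and topoisomerase that undo joined molecules were the BLM rows, at 6.19 and 5.59 FPKM (179964) and at 4.22 and 4.41 FPKM (1166953), and TOP3, at 4.11 and 4.30 FPKM. The nuclease pair that cuts such joints was MUS81, at 1.39 and 1.38 FPKM, and EME1, at 7.39 and 6.78 FPKM. These partners differed in level, EME1 being 5.33 times MUS81 in the control and 4.93 times in the deletion strain. Of the 11 genes, 4 lay above the control and 7 below it.

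End joining genes lay on both sides of the control. KU70 and KU80 form the ring that binds broken ends. KU70 was at 15.1 FPKM in the control and 21.6 FPKM in the deletion strain, a log2 ratio of 0.49, and KU80 at 5.96 and 6.52 FPKM, a ratio of 0.11. LIG4, the ligase of this pathway, was at 5.96 and 8.56 FPKM, a ratio of 0.46. DCLRE1C, a nuclease named Artemis in humans, was at 3.21 and 3.08 FPKM. Together with POLL, described above, KU70, KU80 and LIG4 are the 4 of the 7 pathway genes with values above the control. The median log2 ratio of all 7 was 0.11, and 51.3% of all tested genes had values above the control. These 4 were grouped after the values were seen, so their shared sign is no result. None of the 4 was called, where 6.54% of all tested genes were. Their q-values in the authors' deposited table were 0.507 for KU70, 0.946 for KU80, 0.528 for LIG4 and 0.190 for POLL. The other members that KEGG places here, FEN1, MRE11 and DCLRE1C, lay below the control. Loss of the Ku70 gene is a common trait of laboratory strains of A. niger made for gene targeting. The labels do not say whether these strains carry it, and the KU70 row had values in both.

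**Figure D5:**
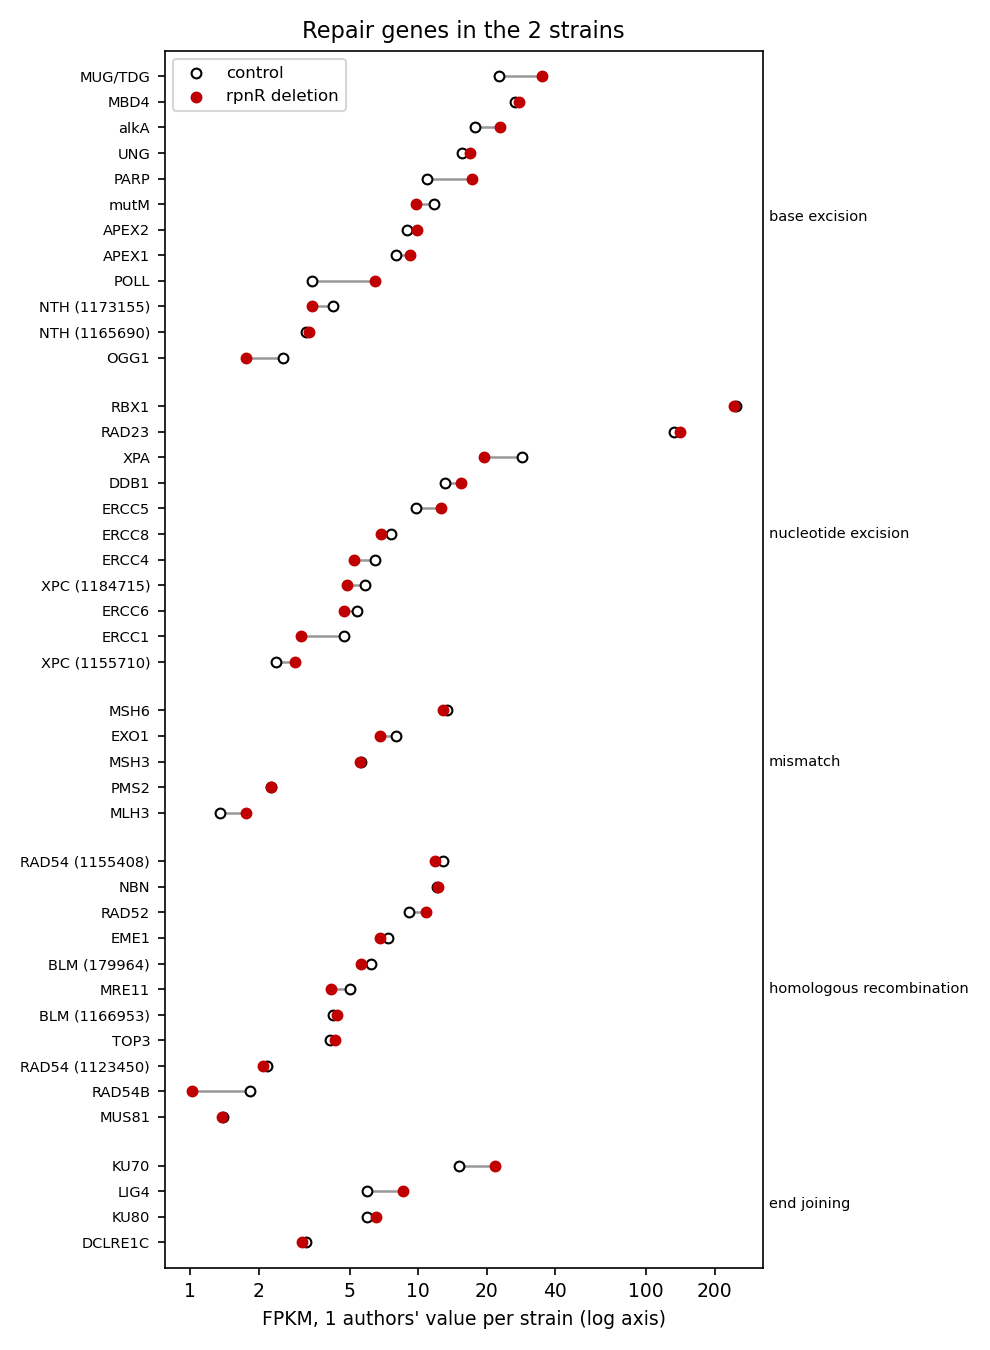
FPKM (x axis, log scale) of 43 tested members with a role in repair, 1 line per gene, with the control as an open and the rpnR deletion strain as a filled circle. The longest lines belong to POLL, PARP, MUG/TDG, XPA, ERCC1 and RAD54B, and RBX1 and RAD23 stand apart at the top of the scale.

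Levels ranked the roles in the same order at both ends in the strains. The MCM genes had the highest median, 23.2 FPKM in the control and 20.2 FPKM in the deletion strain, followed by the clamp, loader and RPA at 16.2 and 18.3 FPKM. Recombination genes had the lowest, at 5.03 and 4.41 FPKM, just under the mismatch genes at 5.64 and 5.55 FPKM. With no replicate values, neighbours in this order cannot be said to differ. All 79 members together made up 0.153% of the summed FPKM of the control and 0.149% of that of the deletion strain.

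The members shared features that the rule did not use. None of the 79 had a predicted secretion signal, which 8.69% of all rows have, and none lay in a secondary metabolism cluster, where 5.94% of all rows lie. Predicted transmembrane domains were listed for 4 members, against 21.5% of all rows. Of these, PCNA and an RFC2/4 row (1158485) list 2 and the MUG/TDG glycosylase 3. The rows of PCNA and RFC2/4 also list domains of unrelated protein families, Vezatin and Sec20 in that order. Including these, 8 rows list such a domain, among them PCNA, POLD2, MCM3, DDB1, POLA1, the RAD54 row 1155408 and the RFC2/4 row 1158485. Whether their gene models join neighbouring genes was not tested, and without them the median log2 ratio was 0.00. The annotations repeat as well, since 68 KEGG entries cover the 79 rows and 8 entries have more than 1 row. How reads were shared between such related genes is not given in the sources used here.

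Other genes of chromosome duplication and the damage response, in 7 lists outside the pathways above, gave 1 call among 58 tested genes, where 6.54% of all tested genes were called. That gene, CRY (1091657), a cryptochrome of the photolyase family, rose from 0.717 FPKM in the control to 2.58 FPKM in the deletion strain, with a log2 ratio of 1.06 and a q of 0.0301 in the authors' deposited table. This call was not made by the authors' own flag or at a q under 0.01, and a filter at a mean of 5 FPKM removes the gene. Over the 58 genes, 20 values lay above the control and 38 below it, with a median log2 ratio of -0.10. Among 8 genes for bypass of lesions and direct reversal, the list that holds CRY, the median was -0.06, and polymerase eta (POLH) was at 19.2 and 14.5 FPKM and the RAD6 type enzyme UBE2A at 80.3 and 108 FPKM.

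Genes of origins, histones and nucleotide supply had no call, which at 7, 8 and 10 tested genes is near the 6.54% called among all tested genes. Of 7 genes for licensing and firing of origins, 5 lay below the control, with a median log2 ratio of -0.13. ORC1, a subunit of the complex that marks origins, was at 3.91 and 2.78 FPKM, ORC2 at 6.11 and 4.86 FPKM, and DBF4, the activator of the Cdc7 kinase, at 17.6 and 14.4 FPKM. Of 8 histone genes, 6 had values below the control and the median was -0.22. The main H3 row (1148181) was at 4066 and 3509 FPKM, H2B (1147357) at 2775 and 2085 FPKM, and H4 (1148178) at 2156 and 1512 FPKM. A low H4 row (1188167) had the opposite sign, at 0.987 and 3.04 FPKM, a log2 ratio of 1.02 with a q of 0.237 in the authors' deposited table, and an H2A row (1091879) was at 287 and 198 FPKM. Of 10 tested genes for nucleotide supply, 6 lay below the control. The subunits of ribonucleotide reductase, which makes the DNA precursors, were RRM1 at 81.1 and 86.3 FPKM and RRM2 at 160.4 and 134 FPKM. The largest ratio there, -0.99, was that of a dUTP pyrophosphatase row (1180849) at 3.45 and 1.24 FPKM, while the more abundant row of that enzyme (1117068) was at 19.5 and 22.5 FPKM. Dihydrofolate reductase rows were at 1.74 and 2.97 FPKM (1179013) and at 15.5 and 12.7 FPKM (1208541).

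Checkpoint, cohesin and cell cycle genes also had no call, which at 8, 11 and 6 tested genes is likewise near the background of 6.54%. Of 8 checkpoint genes 5 lay above the control, with a median log2 ratio of 0.03. SWE1, a kinase that delays mitosis, was at 25.4 and 17.7 FPKM, the RAD24 clamp loader (1159530) at 4.50 and 6.46 FPKM, and the sensor kinase ATR at 12.4 and 15.1 FPKM. Of 11 cohesin and condensin genes, which hold and compact chromosomes, 9 lay below the control, all by small amounts, with a median of -0.10. The largest ratio among them was -0.25, shared by SMC3, SMC4 and SCC3. Of 6 tested cell cycle genes, which are CDC28 type kinases, CKS1, CDC20, CDH1 and CDC14, 3 lay above and 3 below the control. A second CDC28 type row (1140532) was at 7.69 and 5.57 FPKM, CDH1 at 15.9 and 13.2 FPKM, and the phosphatase CDC14 at 33.4 and 38.7 FPKM.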

How the data were processed

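RNA from mycelium of 2 strains was sequenced in 6 libraries, 3 per strain by the labels. Per the submitters' processing notes, the tools included Cuffdiff 2.2.1, Cufflinks, TopHat2, Trimmomatic and CASAVA 1.8.3, with no roles stated. Neither the genome build nor the gene models used are stated there. The deposited table gives an expression value per gene and strain, read as the authors' FPKM because Cuffdiff reports that unit, and the authors' deposited q-value (an adjusted p-value).

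The table has no value per library, so no test, SD or replicate check could be computed, and the authors' q-value under 0.05 served as the call. Of 11910 genes, 2676 with a q of 1 were taken as not tested. The bound on the unadjusted p is q times its highest rank over 9234, tested on simulated data. Log2 ratios used a pseudocount of 1. Members were grouped by KEGG entry into roles, with MBD4 and DCLRE1C placed by pathway. Context lists were matched by KEGG symbol or product name, leaving out 3 product names that share a symbol by chance (tripeptidyl-peptidases, a splicing factor and an O-GlcNAc transferase).

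Genes named were all tested members of role groups of at most 8, the 3 highest and 3 lowest ratios of larger groups, the 3 most abundant of each pathway, and the called genes and 3 largest ratios of each context list. The other members were named as well, except a few genes that enter the counts and medians but are not reported here singly, and the abundant histone rows, ribonucleotide reductase and the second dUTP pyrophosphatase row were chosen after their values were seen. Members and lists were chosen with earlier results of these data known. Alternatives covered thresholds, pseudocounts, scaling, filters on low values and membership. Python 3.11.15 with pandas 2.3.3, numpy 2.4.6 and matplotlib 3.10.9 was used.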

Additional observations from a re-analysis of the deposited data

How the results depend on the processing

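No member was called at a q under 0.10 or by the authors' flag. At a q under 0.10 at least the 6.54% of all tested genes that are under 0.05 pass. The share of all tested genes with the authors' flag was not computed. A q under 0.01 and leaving out genes averaging under 5 FPKM can only remove calls, so neither could have changed this count. With the bound on the unadjusted p under 0.05, 1 was called, where 18.1% of all tested genes were. Over 9 alternatives of pseudocount, scaling, filter and membership, the members' median log2 ratio stayed between -0.06 and 0.01. That of non-homologous end-joining moved from 0.11 to 0.28 without genes averaging under 5 FPKM and to 0.28 for members of 1 pathway only, both of which leave 4 genes. The other pathway medians moved by under 0.1 on the log2 scale, and those of base excision and mismatch repair changed sign in 1 alternative each. Rescaling the strains to the same sum shifted the median of all tested genes from 0.016 to -0.053. The call of CRY was lost at a q under 0.01, by the authors' flag and in the filter on low values, which removes the gene. No paired analysis was possible because the table gives 1 value per strain, and for the same reason no library could be left out. Depth is unknown, so low values carry an unknown counting error.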

Other observations

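Some core replication and repair factors carry no KEGG entry for these pathways and were found by their protein domains, a list written after the values were seen. Of 21 such genes, 14 had values above the control and 7 below it, with a median log2 ratio of 0.04. CRY, described above, was the 1 called, which at 21 genes is near the 6.54% called among all tested genes. Domain genes of the end joining cofactors XRCC4 (43071) and XLF (1184277) had 12.6 FPKM in the control against 13.6 FPKM in the deletion strain and 25.0 against 25.7 FPKM. The 4 genes with the Sld5 domain of the GINS complex, which activates the MCM ring, lay between 5.21 and 17.4 FPKM in the control and between 4.79 and 18 FPKM in the deletion strain.

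The largest ratio among the uncalled genes of that list was that of a UvdE domain gene (1129959), of the UV damage endonuclease family, at 27.3 and 15 FPKM, a log2 ratio of -0.82 with a q of 0.119 in the authors' deposited table. A second gene with a DNA photolyase domain (1167350), the family of CRY, was at 19.5 and 16.3 FPKM with a q of 0.846. The 2 photolyase domain genes thus had opposite signs, and the called one had the lower level in both strains.

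Size of ratio and q did not rank alike among the members. PARP and the MUG/TDG glycosylase had nearly equal log2 ratios, 0.62 and 0.61, but q-values of 0.885 and 0.338 in the authors' deposited table. The RFC2/4 row 1103961 had a ratio of 0.38 and a q of 0.937, while RAD54B, at a ratio of -0.49 and a level below 2 FPKM in both strains, had a q of 0.350. Values per library, which would show the spread behind these q-values, were not used here.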
